A study of Homo sapiens with 22 samples.

Results

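The open chromatin of 2 human cell lines was compared: HFFc6 fibroblasts and H1 embryonic stem cells. The 2 groups, HFFc6_ATAC with 8 libraries and H1_ATAC with 2, held 10 of the 22 libraries of the series. Each group had 1 deposited list of peaks, so 2 of the series' 4 lists were compared, with 155746 regions in HFFc6 and 189982 in H1 on chromosomes 1 to 22 and X, of 532810 regions in all 4. A region was counted as shared where it overlapped a region of the other list by at least 1 bp, and as line-specific otherwise. The rest of the series covered CTCF, the cohesin subunit SMC1 and the histone marks H3K4me3 and H3K27ac in HFFc6, of which only CTCF was used here, as a second readout.

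HFFc6 is clone c6 of HFF-hTERT, a culture of foreskin fibroblasts made immortal by telomerase, and thus stands for 1 clone of 1 cell type. H1 is 1 line of human embryonic stem cells. No treatment or time point was labelled for either. The HFFc6 libraries carried 2 R labels and 4 T labels of unstated meaning, so some may be repeats of 1 preparation, and the H1 libraries were labelled R1 and R2. Each list was 1 call for its group with no value per library. Differences between the lines therefore had no replicate check and no test, and sequencing depth could not be read from the files. The lists also differed in strength, with 85.2% of HFFc6 and 48.4% of H1 regions at a deposited -log10 q of at least 10, and the part of this and of the unequal numbers of libraries in the results was not tested. Intervals below are 95% Wilson intervals of a count and cover counting error only, and ranges over the 22 autosomes show how far a share varied within the genome.

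ATAC-seq uses the transposase Tn5, which inserts sequencing adapters into DNA that is not wrapped tightly in nucleosomes, so peaks mark accessible promoters, enhancers and insulator sites. Promoters rich in CpG dinucleotides tend to be open in most cell types, whereas distal enhancers are opened by the transcription factors of a cell type. In fibroblasts these include AP-1, TEAD and RUNX factors, and in embryonic stem cells OCT4, SOX2 and NANOG.

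Sequence was examined at promoters. The 250 bases before the start are given below for 10 genes of 3 kinds, credited to RefSeq (build GRCh38.p14), as examples chosen after their values were seen. Capitals mark 3 motifs on either strand, where neighbouring matches may overlap. AP-1 motifs were searched as TGANTCA and were found in 6.15% of the windows of all listed starts. The TATA motif was searched as TATAAA and was found in 9.46% of them. GC boxes, the site of SP1 factors, were searched as GGGCGG and were found in 56.3%. First come 5 promoters with an HFFc6 region and no H1 region within 1 kb of a start: COL6A3 (a chain of collagen VI), ECM1 (a secreted matrix protein), CXCL8 (the chemokine interleukin-8), CPA4 (a carboxypeptidase) and JUNB (an AP-1 subunit).
COL6A3 (chr2:237414165-237414414, minus strand): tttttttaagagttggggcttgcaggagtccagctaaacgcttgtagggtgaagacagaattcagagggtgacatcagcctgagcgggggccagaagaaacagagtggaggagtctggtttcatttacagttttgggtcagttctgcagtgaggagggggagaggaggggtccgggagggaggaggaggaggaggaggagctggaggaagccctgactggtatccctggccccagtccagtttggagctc
ECM1 (chr1:150507859-150508108, plus strand): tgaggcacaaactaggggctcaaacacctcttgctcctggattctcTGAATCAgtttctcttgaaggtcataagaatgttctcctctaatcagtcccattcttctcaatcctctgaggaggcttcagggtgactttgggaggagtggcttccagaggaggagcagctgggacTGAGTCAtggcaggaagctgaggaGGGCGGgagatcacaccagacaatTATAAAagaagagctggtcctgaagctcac
CXCL8 (chr4:73740319-73740568, plus strand): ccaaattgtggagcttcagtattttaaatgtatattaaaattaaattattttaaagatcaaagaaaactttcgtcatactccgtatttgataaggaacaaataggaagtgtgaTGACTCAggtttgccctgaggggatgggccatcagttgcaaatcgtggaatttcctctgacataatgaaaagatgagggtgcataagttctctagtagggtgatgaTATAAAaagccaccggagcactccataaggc
CPA4 (chr7:130292911-130293160, plus strand): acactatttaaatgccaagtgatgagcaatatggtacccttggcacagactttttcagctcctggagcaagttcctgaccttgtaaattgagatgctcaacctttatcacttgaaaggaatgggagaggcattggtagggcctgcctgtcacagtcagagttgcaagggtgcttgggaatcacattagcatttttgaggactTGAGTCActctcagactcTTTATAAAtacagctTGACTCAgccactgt
JUNB (chr19:12791236-12791485, plus strand): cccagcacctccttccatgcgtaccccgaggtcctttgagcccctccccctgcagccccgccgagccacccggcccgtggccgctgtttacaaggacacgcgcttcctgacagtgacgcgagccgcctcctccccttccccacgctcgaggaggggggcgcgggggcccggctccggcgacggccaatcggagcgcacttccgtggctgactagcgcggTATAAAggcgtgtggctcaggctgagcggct
Next come 4 promoters with an H1 region and no HFFc6 region within 1 kb of a start. These include L1TD1 (an RNA-binding protein of stem cells), ZFP42 (the zinc finger factor REX1) and DNMT3B (a de novo DNA methyltransferase). OTX2 (a homeodomain factor of the epiblast and forebrain) completes the set.
L1TD1 (chr1:62194599-62194848, plus strand): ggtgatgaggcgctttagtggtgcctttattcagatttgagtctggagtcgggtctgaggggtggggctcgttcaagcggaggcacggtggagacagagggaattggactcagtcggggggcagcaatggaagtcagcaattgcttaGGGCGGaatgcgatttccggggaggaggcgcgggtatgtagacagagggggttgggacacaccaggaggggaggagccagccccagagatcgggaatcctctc
ZFP42 (chr4:187995521-187995770, plus strand): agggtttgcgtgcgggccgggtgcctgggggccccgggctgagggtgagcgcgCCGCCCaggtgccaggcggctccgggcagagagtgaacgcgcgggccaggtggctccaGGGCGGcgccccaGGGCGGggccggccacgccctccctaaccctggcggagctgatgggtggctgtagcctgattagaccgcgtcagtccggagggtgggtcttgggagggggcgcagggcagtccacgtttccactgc
DNMT3B (chr20:32779602-32779851, plus strand): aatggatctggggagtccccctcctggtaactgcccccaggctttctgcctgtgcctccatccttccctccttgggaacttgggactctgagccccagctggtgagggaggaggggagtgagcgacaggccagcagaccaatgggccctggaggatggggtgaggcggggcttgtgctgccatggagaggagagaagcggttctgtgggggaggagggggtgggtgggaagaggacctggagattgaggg
OTX2 (chr14:56805668-56805917, minus strand): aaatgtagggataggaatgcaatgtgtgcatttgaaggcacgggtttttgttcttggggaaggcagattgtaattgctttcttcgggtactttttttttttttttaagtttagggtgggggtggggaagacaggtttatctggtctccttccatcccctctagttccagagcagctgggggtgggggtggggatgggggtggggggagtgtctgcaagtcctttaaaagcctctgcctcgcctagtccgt
Last is the promoter of FN1 (fibronectin), open in both lists.
FN1 (chr2:215436069-215436318, minus strand): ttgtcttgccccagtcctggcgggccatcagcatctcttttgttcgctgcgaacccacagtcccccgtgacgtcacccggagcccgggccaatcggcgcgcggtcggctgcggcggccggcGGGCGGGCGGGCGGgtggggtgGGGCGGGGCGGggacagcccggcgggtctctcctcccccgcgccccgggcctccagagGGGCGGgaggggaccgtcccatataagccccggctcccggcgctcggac
ECM1 held AP-1 matches that began 204 and 78 bases before its start, CXCL8 held 1 at 137, and CPA4 held 2 at 48 and 15. TATA matches lay 30 bases before the ECM1 start, 31 before CXCL8 and 31 before JUNB, and CPA4 held 2 that overlap, at 30 and 28. FN1 held 6 GC boxes and ZFP42 held 3, while COL6A3, DNMT3B and OTX2 held none of the 3 motifs in this stretch. Over the full window of 300 bases, which adds 50 bases after the start, FN1 held 38 CpG, JUNB 29 and ZFP42 24, against 14 in L1TD1, 6 in OTX2, 4 in COL6A3 and CXCL8, 3 in ECM1 and DNMT3B and 1 in CPA4. The HFFc6 region over the ECM1 start had a fold enrichment of 16.2, that of CPA4 15.99, CXCL8 14.7, COL6A3 7.07 and JUNB 4.20. The H1 region at L1TD1 had 11.2, ZFP42 10.2, OTX2 7.24 and DNMT3B 5.37. The classes of JUNB and DNMT3B hung on the limit of 1 kb. The nearest H1 region to JUNB lay at 1204 bp, and the nearest HFFc6 region to DNMT3B at 1147 bp. Fold enrichment is the authors' deposited height of a peak over its background.

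Over all listed starts of protein-coding genes, 22131 windows of 15811 genes, promoters open in 1 line alone were poorer in CpG than those open in both. Windows with a region of both lists within 1 kb of the start (15056) had a median of 26 CpG per 300 bases and a GC content of 65.7%. Windows open in HFFc6 alone (1276) had a median of 5 CpG and 52.8% GC. Windows open in H1 alone (1964) lay between, with 11 CpG and 59.3% GC, and those open in neither (3835) had 4 CpG and 48.7% GC. Under 10 CpG were found in 11.4% of the windows open in both, 71.4% of those open in HFFc6 alone, 46.2% of those open in H1 alone and 80.7% of those open in neither. The H1-alone promoters thus held CpG-rich windows with 20 or more CpG in 34.1% of cases, against 15.6% for HFFc6 alone. With stricter peaks, with lists of equal length, with 500 bp around each summit or with a window of 250 bp, the median was 5 to 9 CpG for HFFc6 alone and 12 to 16 for H1 alone.

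**Figure D1:**
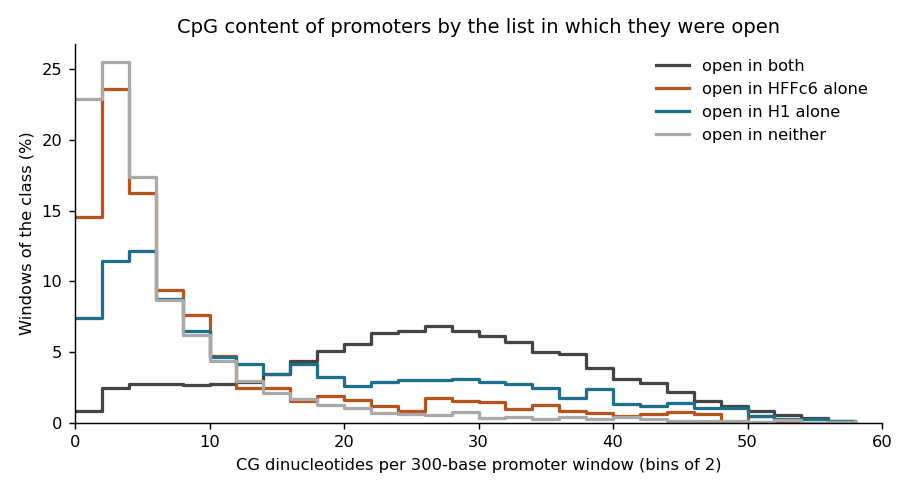
CG dinucleotides per promoter window of 300 bases (x axis, bins of 2) against the percentage of windows of each class (y axis), for windows open in both lists, HFFc6 alone, H1 alone or neither. The curve for both lists peaks near its median of 26, the HFFc6-alone curve lies near its median of 5, and the H1-alone curve holds a low peak and a shoulder of CpG-rich windows.

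AP-1 motifs stood out at the promoters open in HFFc6 alone. AP-1 is a dimer of FOS and JUN proteins that acts downstream of growth factors and adhesion. TGANTCA was found in 15.6% of these windows (interval 13.7 to 17.7), against 6.67% of those open in H1 alone (5.65 to 7.86), 4.35% of those open in both, 9.80% of those open in neither and 6.15% of all windows. Among windows with under 10 CpG, the shares were 19.1% (16.7 to 21.8) for HFFc6 alone, 9.91% (8.13 to 12.03) for H1 alone, 11.8% for both and 11.2% for neither, against 12.3% of all such windows. Under the 4 other settings just named, the share was 13.0% to 15.3% for HFFc6 alone and 5.14% to 6.42% for H1 alone. E-boxes of the form CACCTG, the site of SNAI and ZEB repressors, went the other way between the lines. They were in 27.7% of windows for H1 alone (25.8 to 29.7) and 18.7% for HFFc6 alone (16.7 to 21.0). Windows open in neither had 23.8%, and all windows 19.98%. Among windows with under 10 CpG the shares were 25% (22.3 to 27.9) for H1 alone and 19.1% (16.7 to 21.8) for HFFc6 alone. The share for neither was 23.1% (21.7 to 24.6) there, which overlaps that of H1 alone, against 21.97% of all such windows. CCGGAAG, the core of ETS sites, was found in 17.2% of the windows open in both and in 3.29% and 3.41% of those open in HFFc6 or H1 alone, against 12.8% of all. GC boxes were in 69.9% of the windows open in both, 45.9% for H1 alone and 27.7% for HFFc6 alone, against 56.3% of all windows. Most of this gap went with CpG content: the shares were 16.2%, 15.3% and 11.9% among windows with under 10 CpG and 76.7%, 72.3% and 67.4% among the others. The ETS shares among windows with under 10 CpG were 3.799% for both, 1.10% for HFFc6 alone and 0.771% for H1 alone. The TEAD core GGAATG was in 17.3% of HFFc6-alone and 13.4% of H1-alone windows (12.2% of all), but in 19.8% and 18.9% once windows with under 10 CpG were compared (17.8% of all such). TGTGGTT, a RUNX core, was in 6.505% and 4.12% (3.70% of all), or 7.57% and 6.94% among windows with under 10 CpG, and the octamer ATGCAAAT, read by OCT factors, in 1.96% and 2.19% (1.65% of all), with intervals that overlapped between the lines for the octamer. A match of these letters is a description of the sequence and not a bound site.

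**Figure D2:**
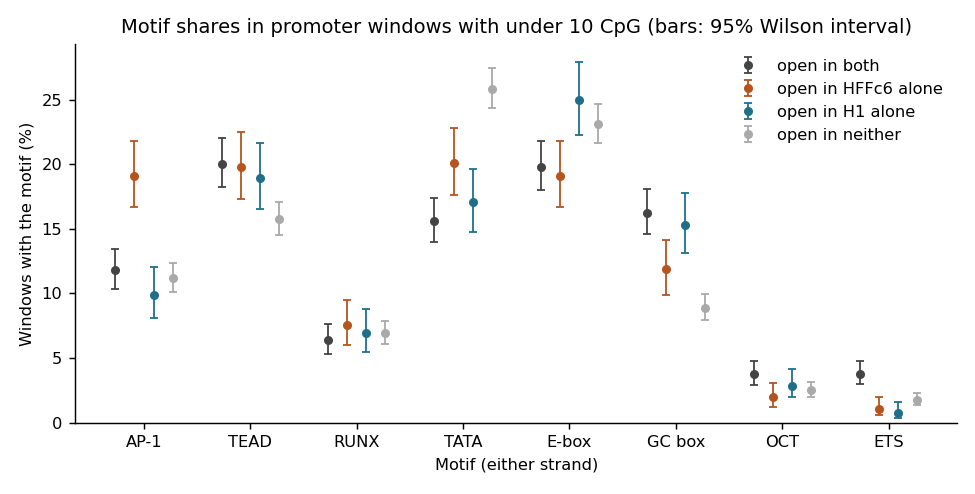
Percentage of promoter windows with under 10 CpG that hold each motif on either strand (y axis), by motif (x axis) and by the list in which the promoter was open; points are shares and bars are 95% Wilson intervals. The AP-1 share for HFFc6 alone (19.1%) lies above those of the other 3 classes (9.91% to 11.8%), whereas the TEAD and RUNX shares of the classes open in either line alone overlap.

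Counted per gene, 13993 of 19970 protein-coding genes (70.1%) had a region of both lists within 1 kb of a start. Another 916 (4.59%) were open in HFFc6 alone and 1675 (8.39%) in H1 alone. For 3386 (17.0%) neither list had one. These 4 percentages are the background for the gene groups below. The groups were chosen with earlier results of these data known, so their counts are descriptions only. Genes with no listed start, 4159 of them, were judged at both ends of the gene. For such a gene, open at the promoter means open at either end, which may be the end far from its start. The larger number for H1 alone depended on weak peaks: with a deposited -log10 q of at least 10 there were 1492 genes for HFFc6 alone and 1390 for H1 alone. Around the starts, 9390 genes (47.0%) had more HFFc6-only than H1-only regions within 50 kb. For 8154 (40.8%) the H1-only regions prevailed, and 2426 (12.1%) were even, a comparison called the lean of a gene below. This order turned to 8440 against 9227 with regions of 500 bp around each summit, and widened to 13191 against 4300 with a -log10 q of at least 10. The promoter and its surroundings went together in part: of the genes open in HFFc6 alone, 63.4% leaned to HFFc6 and 26.7% to H1, and of those open in H1 alone, 21.6% leaned to HFFc6 and 71.2% to H1, although the promoter's own region counts in the lean.

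Core pluripotency factors leaned to H1. Of 14, 12 had more H1-only regions within 50 kb and 2 (KLF4 and SALL4) more HFFc6-only regions, with a median difference of -4, against 0 over all genes. SOX2, which holds stem cells in self-renewal, had 4 HFFc6-only and 14 H1-only regions around it, and both lists had a region on its start. The HFFc6 region over the start had a fold enrichment of 3.43. An H1 region of 8.80-fold lay within 1 kb with its summit 1235 bp from the start, so these values do not compare the same site. OTX2 had 0 HFFc6-only and 13 H1-only regions, and the nearest HFFc6 region lay 138339 bp from its start. PRDM14, a repressor that guards the pluripotent state, had 1 and 10. PRDM14, ZFP42 and OTX2 were open at the promoter in H1 alone, 9 factors in both lists and none in HFFc6 alone. The defining genes POU5F1 (OCT4) and NANOG had no region of either list within 1 kb: the nearest H1 regions lay 1189 and 1284 bp away and the nearest HFFc6 regions 4896 and 8178 bp away. POU5F1 and PRDM14 had no listed start and were judged at both gene ends. The POU5F1 distances may thus not be those from its promoter. With a -log10 q of at least 10 the lean to H1 held for 7 of 14 factors and to HFFc6 for 6, with a median of -1, against a median of 2 over all genes, which holds for every count below at that limit.

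Other stem cell genes differed at the promoter. LIN28A (which blocks let-7 maturation), L1TD1, DPPA2 (a chromatin factor of early embryos), DNMT3B and ALPL (tissue-nonspecific alkaline phosphatase, a stem cell stain) were open in H1 alone, 5 of 12 genes, against 8.39% of all genes. DPPA2 had the highest H1 peak of these at 15.4-fold and its nearest HFFc6 region lay 19803 bp away. At DNMT3B and LIN28A the nearest HFFc6 regions lay just past the limit of 1 kb, at 1147 and 1189 bp. The lean was mixed, with 5 genes to HFFc6 and 7 to H1. Of 14 genes of Nodal, Lefty and FGF signalling, 5 were open in H1 alone: the ligands NODAL, LEFTY1, GDF3 and FGF4, and CRIPTO, the co-receptor of NODAL. LEFTY2, an inhibitor of NODAL, had an HFFc6 region of 2.51-fold and no H1 region within 1 kb, the nearest lying at 1155 bp. LEFTY1 had an H1 region of 2.58-fold. Both LEFTY regions were lost with a -log10 q of at least 10, where 3 of the 14 genes were open in H1 alone and the lean turned from 4 to HFFc6 and 8 to H1 into 10 and 3. FGF2, which fibroblasts and stem cell media both supply, was open in both lists and had 14 HFFc6-only and 3 H1-only regions.

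Genes of the extracellular matrix leaned to HFFc6 while their promoters were mostly open in both lines. All 15 matrix glycoproteins and proteoglycans had more HFFc6-only regions (median difference 6), and did so under each of the 5 alternatives tried. Of 11 collagens, 10 leaned to HFFc6 (median 6), and 8 to 11 did so under the alternatives. COL1A2, a chain of collagen I, had 19 HFFc6-only and 6 H1-only regions within 50 kb. FN1 had 17 and 3, FBN1 (fibrillin-1) 12 and 3, and COL3A1 13 and 4. Yet 10 of 11 collagens and 13 of 15 glycoproteins and proteoglycans were open at the promoter in both lists: COL1A2 had a fold enrichment of 10.8 in HFFc6 and 7.74 in H1, and FN1 10.03 and 9.52. COL6A3 and POSTN (periostin) were open in HFFc6 alone, POSTN through a region of 2.38-fold that ended the class when peaks had to reach a -log10 q of 10. VCAN (versican) was open in H1 alone at 3.99-fold while it leaned to HFFc6 with 11 and 5 regions. Its nearest HFFc6 region lay just past the promoter limit, at 1109 bp. Of 15 enzymes and inhibitors of matrix remodelling, 11 leaned to HFFc6 and 3 to H1. MMP1 (a collagenase) and PLAUR (the urokinase receptor) were open in HFFc6 alone, PLAUR with an H1 region 1051 bp away that made it open in both with 500 bp around each summit. MMP13 was open in H1 alone, through a region that a -log10 q of at least 10 removed.

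Among contractile and surface genes of fibroblasts, more leaned to HFFc6 than to H1, by smaller differences. With 12 genes in each list, neither count is read as a difference from the 47.0% of all genes. Of 12 contractile and cytoskeletal genes, 8 leaned to HFFc6 and 3 to H1 (median 2.5). CALD1 (caldesmon, which binds actin) led with 35 HFFc6-only and 11 H1-only regions, and ACTA2 (smooth muscle actin) had 13 and 1. To H1 leaned VIM (7 and 8), CNN1 (2 and 5) and TPM2 (3 and 4). With 500 bp around each summit, 6 contractile genes leaned to HFFc6 and 4 to H1 (median 1). Of 12 surface genes and growth factor receptors, 8 leaned to HFFc6 and 4 to H1. The latter were FAP (11 and 16), ENG (3 and 7), THY1 (5 and 7) and ITGA5 (5 and 6). THY1, a defining surface marker of fibroblasts that stem cells carry too, had no region of either list within 1 kb of a gene end. Its start was not listed. PDGFRB was open in both lists and had 10 and 9. Of 22 mesenchymal transcription factors, 13 leaned to HFFc6 and 6 to H1 (median 1), not far from the 47.0% of all genes that leaned to HFFc6. PRRX1 had 14 and 5, and TBX15 16 and 6. No promoter of these 22 was open in 1 line alone: 21 were open in both, and EBF1 in neither. With a -log10 q of at least 10, 6 of the 22 were open in HFFc6 alone, PRRX1 among them. Of 15 TGF-beta ligands, receptors and SMADs, 10 leaned to HFFc6 and 3 to H1. GREM1, a BMP antagonist, had 16 and 3, whereas BMP2 had 1 and 12. TEAD and YAP genes with their targets leaned to HFFc6 in 7 of 10 and AP-1 genes in 6 of 10, and with 10 genes each neither count is read as a difference from the 47.0% of all genes. JUNB was open in HFFc6 alone, with the nearest H1 region at 1204 bp. The AP-1 genes had 5 and 5 with regions of 500 bp around each summit.

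**Figure D3:**
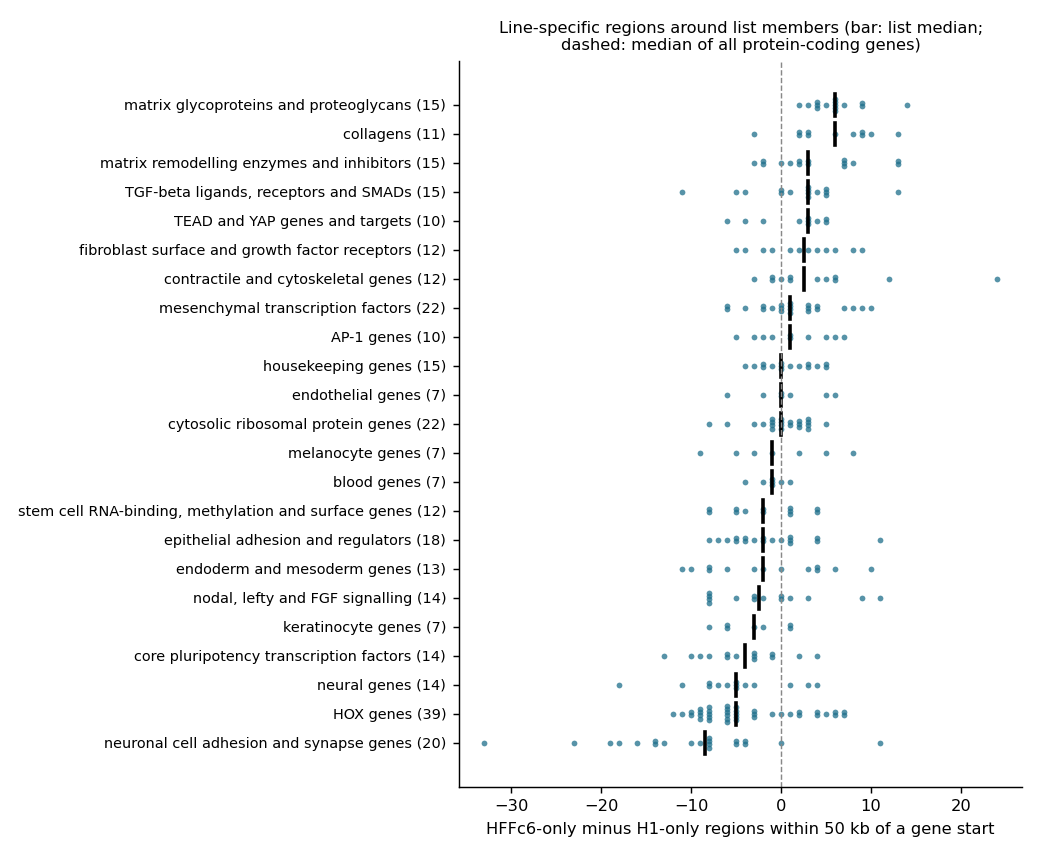
HFFc6-only minus H1-only regions within 50 kb of a start (x axis) for each gene (points) of 23 lists (y axis, number of genes in brackets); black bars are list medians and the dashed line is the median of all protein-coding genes, 0. Matrix glycoproteins and collagens lie at a median of 6 and neuronal adhesion genes at -8.5.

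Neuronal adhesion genes had the lowest median of the 23 lists. This list was chosen with earlier results of these data known and holds DLG2, the largest lean to H1 of all genes. Its rank and counts therefore describe the list and give no support for a difference. Of 20 neuronal cell adhesion and synapse genes, 18 leaned to H1 and 1 (CNTN3) to HFFc6, with a median of -8.5. Over all genes, 40.8% leaned to H1. The part of gene density in these counts was not tested. Together these 20 had 243 distinct H1-only and 35 HFFc6-only regions within 50 kb. Promoters of 9 were open in H1 alone, against 8.39% of all genes, and none in HFFc6 alone. PTPRD, a receptor phosphatase of synapses, had 0 HFFc6-only and 23 H1-only regions, and LRRTM4 0 and 19. The count of 18 of 20 held under all 5 alternatives. Transcription factors of neural fate did likewise, with 11 of 14 leaning to H1 and SOX1, SOX3 and NEUROD1 open in H1 alone. FEZF1, a forebrain factor, had 1 and 19. With a -log10 q of at least 10 this list had 6 to HFFc6 and 7 to H1. Of 13 endoderm and mesoderm genes, 5 leaned to HFFc6 and 7 to H1, which turned to 7 and 6 with that limit. TBXT (brachyury) and GSC (goosecoid), both factors of the primitive streak, were open in H1 alone.

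Epithelial genes differed at promoters or gene ends. Of 18 epithelial adhesion genes and regulators, 7 were open in H1 alone and none in HFFc6 alone: CDH1 (E-cadherin), CLDN4, CLDN6, KRT19 and the regulators OVOL1, OVOL2 and GRHL2. Of these, CDH1, KRT19, OVOL1, OVOL2 and GRHL2 had no listed start and were judged at both gene ends. The OVOL1 region lay 98 bp from a gene end that may not be its start. The CDH1 region reached 12.6-fold in H1 and the nearest HFFc6 region lay 4525 bp from a gene end. At KRT19 the nearest HFFc6 region lay just past the promoter limit, at 1008 bp. KRT8 and EPCAM were open in both lists. Around the starts 6 leaned to HFFc6 and 11 to H1, which turned to 10 and 8 with a -log10 q of at least 10. With that limit 8 of 18 promoters were open in H1 alone.

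The 4 HOX clusters, whose genes set position along the body axis, did not share a direction. HOXA leaned to HFFc6 in 10 of 11 genes with 1 equal, while all 10 HOXB, all 9 HOXC and all 9 HOXD genes leaned to H1. Windows of neighbouring HOX genes overlap, so the distinct regions count for more: 17 HFFc6-only and 15 H1-only around HOXA, 9 and 27 around HOXB, 4 and 14 around HOXC, and 7 and 16 around HOXD. With a -log10 q of at least 10, HOXC turned to 7 and 3 and HOXD to 12 and 3, while HOXA had 21 and 7 and HOXB 6 and 11. At the promoter, 7 HOX genes were open in HFFc6 alone, among them HOXA7 and HOXA11, and 5 in H1 alone: HOXB1, HOXB4, HOXB8, HOXC13 and HOXD10. HOXB4, HOXB8 and HOXC13 had no listed start and were judged at both gene ends. The HOXB8 region lay 41 bp from a gene end that may not be its start.

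Markers of other cell types that skin or a stem cell culture could hold were open in each of the 4 ways. Of 7 keratinocyte genes, TP63 was open in HFFc6 alone (3.93-fold) and 4 in H1 alone, with KRT5 at 3.81-fold and KRT14 in neither. At a -log10 q of at least 10, 2 of the 7 were open in H1 alone, the KRT5 region was lost, and the lean went from 2 to HFFc6 and 5 to H1 to 4 and 2. No promoter of the 7 melanocyte, 7 endothelial and 7 blood genes was open in HFFc6 alone, and 2, 1 and 1 were open in H1 alone. Open in both lists were 3 melanocyte, 3 endothelial and 2 blood genes. The blood genes were SPI1 and CD3E. Neither had a listed start, so their regions lay near a gene end that may not be the promoter. PMEL was also judged at both gene ends. The melanocyte genes were MITF, the master factor of that lineage, with 14.8-fold in HFFc6 and 12.54-fold in H1, PMEL with 13.8-fold and 9.09-fold, and DCT with 13.1-fold and 6.15-fold. All 15 housekeeping and all 22 ribosomal protein genes were open in both lists, and their median lean was 0. The part of other cells in the lists was not tested.

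Over all genes, the largest leans to HFFc6 were at genes of the actin cytoskeleton among others, and those to H1 at several genes of neurons. To HFFc6 leaned LIMCH1 (which activates myosin II; 43 and 9), PALLD (palladin, an actin organiser; 36 and 11), CALD1 and ARID5B (27 and 4), followed by TG, PDZRN3, STARD13, BLID and CRIM1. To H1 leaned DLG2 (a postsynaptic scaffold; 12 and 45), PDE4D (21 and 52), CDH12 (a cadherin of neurons; 0 and 28), ESRRG (1 and 27) and FGF14 (3 and 29), followed by GPM6A, CADPS2, DTNA and EPB41L3. Genes with many listed starts span more sequence, and DLG2 had 9 starts, PDE4D 8 and LIMCH1 4. PDE4D changed sides with a -log10 q of at least 10, to 21 and 16. The strongest promoters open in HFFc6 alone, by fold enrichment, were those of MROH2B (21.6), ZNF717, ACMSD, ALPK1, TAS2R14, SLC28A2, BTN3A3, POLR2J2 and KLHL12 (18.8), and in H1 alone those of CDH10 (29.2), CCDC81, PCDH15, VIP, GIMAP5, CCER1, DHX32, F8, F8A1 and ADAM28 (24.5). Some of these classes hung on the limit of 1 kb. The HFFc6 region lay 931 bp from an end of SLC28A2 and the nearest H1 region 1017 bp. At KLHL12 the distances from the start were 985 and 1171 bp, and the nearest H1 region to POLR2J2 lay at 1141 bp. ACMSD, SLC28A2 and ADAM28 had no listed start and were judged at both gene ends. With 500 bp around each summit, ACMSD, TAS2R14, SLC28A2 and KLHL12 were open in neither list. CDH10 and PCDH15 encode cadherins of neurons, and the nearest HFFc6 regions lay 143874 and 691216 bp away. ZNF717, POLR2J2 and F8A1 belong to families with near-identical copies and are uncertain, since reads can be placed on either copy.

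Across the genome, about 1 region in 3 was shared: 54067 of HFFc6 (34.7%, autosomes 28.5% to 56.4%) and 60442 of H1 (31.8%, autosomes 22.8% to 53.1%). The 60475 overlapping pairs joined 24.9 Mb. That was 20.02% of the bases in the HFFc6 list, where the H1 list covered 2.36% of the span of these chromosomes, and 35.5% of the bases in the H1 list, where the HFFc6 list covered 4.19%. HFFc6 regions were wider, with a median of 707 bp against 301 bp, and 61.4% of the H1 regions in pairs lay wholly inside their HFFc6 partner. One HFFc6 region took in 2 H1 regions in 5182 cases and 3 or more in 583, whereas 33 H1 regions met 2 HFFc6 regions. Summits of a pair lay a median of 68 bp apart, with 41.6% within 50 bp and 15.9% over 500 bp apart. Shared regions were stronger and wider: the median fold enrichment was 7.88 against 5.26 for line-specific regions in HFFc6 and 7.82 against 5.21 in H1, and the median width 894 against 629 bp and 394 against 268 bp.

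Sharing differed with location and with strength. Within 1 kb of a start of a protein-coding or lncRNA gene, 76.2% of HFFc6 and 72.0% of H1 regions were shared, against 28.2% and 25.2% of regions farther away. From the weakest to the strongest quintile of the list by fold enrichment, sharing near starts went from 44.5% to 90.4% in HFFc6 and from 55.2% to 88.1% in H1. Distal sharing went from 15.8% to 42.8% in H1. In HFFc6 it went from 19.04% to 35.3% in the next to strongest quintile and was 33.1% in the strongest. The strongest distal regions of either line were thus shared less often than the weakest regions near starts.

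Line-specific regions differed in how far they lay from gene starts. Of the H1-only regions 18.4% lay over 100 kb from any start, against 9.93% of the HFFc6-only regions, and the H1 share was the higher on 19 of 22 autosomes. The median distance was 30512.5 bp for H1-only and 22178 bp for HFFc6-only regions, against 8686 and 9999 bp for shared ones. Shared regions lay within 1 kb of a start in 31.8% (H1) and 29.8% (HFFc6) of cases, and line-specific ones in 5.76% and 4.96%.

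**Figure D4:**
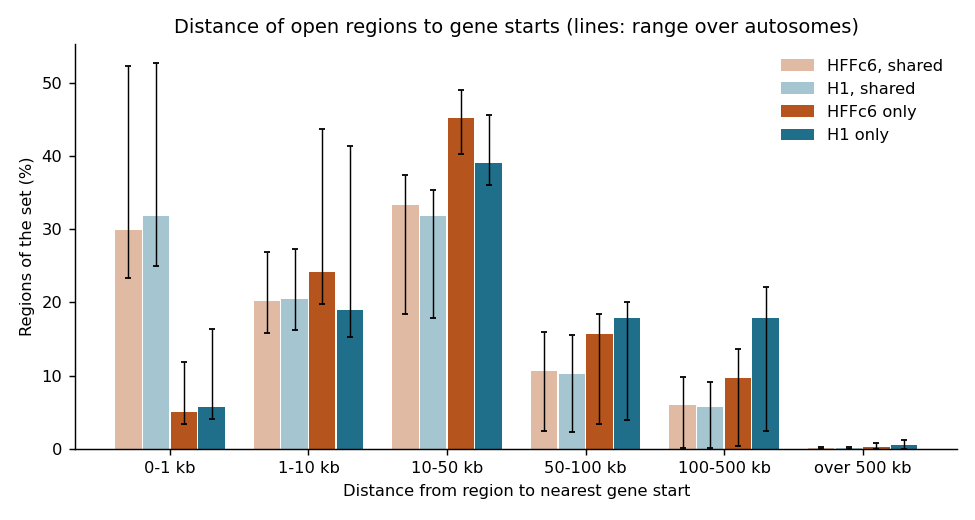
Percentage of regions (y axis) by distance to the nearest start of a protein-coding or lncRNA gene (x axis), for shared and line-specific regions of each list; black lines span the lowest and highest autosome. Within 1 kb of a start, shared regions (29.8% and 31.8%) exceed line-specific ones (4.96% and 5.76%), and H1-only regions exceed HFFc6-only regions beyond 100 kb (18.4% against 9.93%).

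Windows without a protein-coding start showed the widest gap, though such windows can lie inside a long gene or hold lncRNA genes. In 384 windows of 1 Mb with no protein-coding start, the median was 4 HFFc6-only and 46 H1-only regions, and H1-only regions were the more numerous in 77.6% of windows. H1-only regions outnumbered HFFc6-only ones 3.51 to 1 there, 1.40 to 1 in windows with 1 to 5 starts, 0.924 to 1 with 6 to 15 and 1.07 to 1 with 16 or more. The H1-only count was nearly flat over gene density, with medians of 46, 49, 41 and 38, and the HFFc6-only count was not, with 4, 36, 45 and 34. With a -log10 q of at least 10 the ratio in windows with no protein-coding start was 1.36, against 0.428 to 0.574 in the other 3 kinds. The level thus moved with the limit, and the gap between windows with no such start and the others did not close. Single windows showed the extremes. EPHA7, an ephrin receptor, lay in chr6:93000001-94000000 with 107 H1-only and 0 HFFc6-only regions, ERBB4, a neuregulin receptor, in chr2:211000001-212000000 with 107 and 7, and PTPRD in chr9:8000001-9000000 with 99 and 0. The windows richest in HFFc6-only regions held FN1 (chr2:215000001-216000000, 100 HFFc6-only and 42 H1-only), COL6A3 (chr2:237000001-238000000, 96 and 46) and PALLD (chr4:168000001-169000000, 95 and 38).

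**Figure D5:**
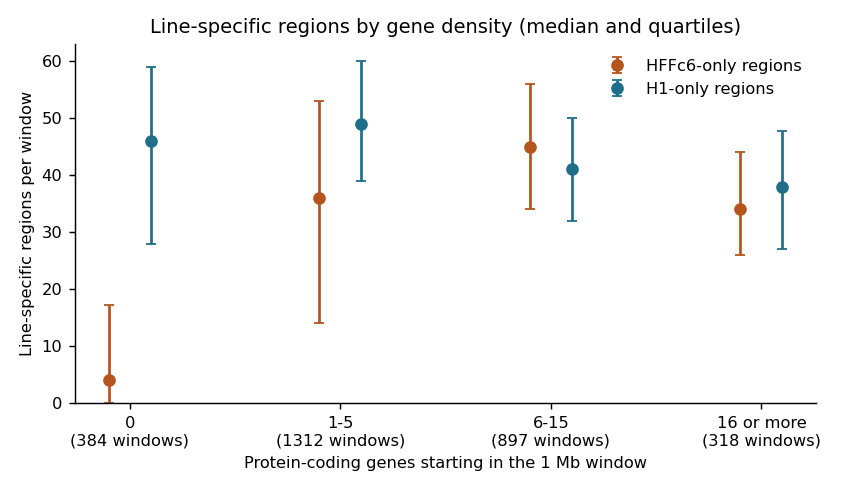
Line-specific regions per window of 1 Mb (y axis) by the number of protein-coding genes that start in it (x axis); points are medians and bars the lower and upper quartiles over windows, HFFc6-only in orange and H1-only in blue. In the 384 windows with no start the medians are 4 and 46, and in the 897 windows with 6 to 15 starts they are 45 and 41.

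Line-specific regions also came in clusters, counted as at least 5 line-specific regions of 1 list. The same limit on the gaps between them held for both lists (the widest gap inside an H1 cluster was 12498 bp). Shared regions and regions of the other list could lie between the members. HFFc6 had 4226 clusters with 28.2% of its line-specific regions, 484 of them with 10 or more regions, and H1 had 4431 with 21.7%, 295 of them with 10 or more. The other line's list was silent in 51.2% of the H1 clusters and in 16.5% of the HFFc6 clusters. The number of H1 clusters moved most with the limits: it was 1945 with lists of equal length and 174 with a -log10 q of at least 10, against 4627 and 3898 for HFFc6. A gap of 5 kb left 475 in HFFc6 and 339 in H1. The largest in HFFc6 lay over CRIM1 and FEZ2 (25 regions in 105 kb) and ATIC and FN1 (25 in 88.7 kb), followed by clusters of 23 that include those over CMIP, close to LSM3 and, beside BLID, around the let-7a-2 and miR-100 hairpins. The largest in H1 lay in ZFPM2 (a cofactor of GATA factors; 29 regions in 121 kb), ELAVL2 (a neuronal RNA-binding protein; 24 in 126 kb), FEZF1 and CADPS2 (23 in 107 kb), SIPA1L2 (22) and FGF14 (22).

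MicroRNA loci gave a contrast of their own. MicroRNAs pair through their seed, bases 2 to 8, with target transcripts. Of 1558 hairpins in the RefSeq table, 267 (17.1%) had a region of both lists within 1 kb, 188 (12.1%) of HFFc6 alone, 127 (8.15%) of H1 alone and 976 (62.6%) of neither. The mature sequences below, with the seed in capitals, are those of loci picked after their values were seen because they are known for fibroblasts, stem cells or epithelia. The first 3 share the let-7 seed, which represses growth and stem cell genes, and the next 4 also come from loci open in HFFc6 alone.
let-7a-5p: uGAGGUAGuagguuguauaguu
let-7f-5p: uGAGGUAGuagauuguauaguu
miR-98-5p: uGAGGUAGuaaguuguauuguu
miR-100-5p: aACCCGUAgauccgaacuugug
miR-125b-5p: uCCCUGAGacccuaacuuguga
miR-31-5p: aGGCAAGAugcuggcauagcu
miR-199a-5p: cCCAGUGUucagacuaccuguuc
The next 4 share the seed of the embryonic stem cell microRNAs.
miR-302a-3p: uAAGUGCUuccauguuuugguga
miR-302b-3p: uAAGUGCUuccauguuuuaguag
miR-372-3p: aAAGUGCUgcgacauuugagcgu
miR-373-3p: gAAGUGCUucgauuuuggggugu
The last 4 come from loci with an H1 region: miR-9, which acts in neural progenitors, the epithelial pair miR-200c and miR-141, and miR-21.
miR-9-5p: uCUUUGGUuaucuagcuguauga
miR-200c-3p: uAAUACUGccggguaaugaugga
miR-141-3p: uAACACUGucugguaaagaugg
miR-21-5p: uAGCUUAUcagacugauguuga
Of 12 let-7 and miR-98 hairpins, 4 were open in HFFc6 alone, 1 in both, 7 in neither and none in H1 alone. The let-7a-2 hairpin lay inside an HFFc6 region of 4.64-fold with the nearest H1 region 7598 bp away, and miR-100 and miR-125b-1, of the same host transcript, had HFFc6 regions 555 and 400 bp away. MIR199A1 lay inside an HFFc6 region of 7.56-fold. MIR23A, MIR27A and MIR24-2 shared 1 HFFc6 region of 2.46-fold. Of the 3 miR-9 hairpins, 2 were open in H1 alone and 1 in both, with MIR9-1 80 bp from an H1 region of 11.6-fold and its nearest HFFc6 region at 1018 bp. MIR200C was open in H1 alone and its neighbour MIR141 in both. MIR21, abundant in fibroblasts, had an H1 region of 8.35-fold 423 bp away and its nearest HFFc6 region at 1275 bp.

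The microRNA clusters known for stem cells had no H1 region within 1 kb. All 5 hairpins of the cluster of miR-302 and miR-367 were open in HFFc6 alone, through 1 region of 3.801-fold at chr4:112648490-112649012 that covers part of MIR302B, and the nearest H1 region lay 1549 to 2160 bp from the hairpins. No region of either list lay within 1 kb of MIR371A, MIR372 or MIR373. Promoters of primary transcripts can lie far from hairpins and were not examined. Among other short RNAs, 318 of 443 tRNA genes were open in both lists, with 16 in HFFc6 alone and 28 in H1 alone, and 146 of 1196 snoRNA genes were open in HFFc6 alone against 57 in H1 alone. For lncRNA genes the numbers were 2445 in HFFc6 alone and 2806 in H1 alone of 18177.

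CTCF, the insulator protein that holds loops of chromatin, was the readout that the sharing did not use. The 2 CTCF libraries were labelled as Cut&Tag on the cell line HFFc6 with Tn5 as the enzyme, but their titles read HFF1 and chip, and the files used here do not settle which holds. In HFFc6, 62.5% of the shared distal regions (autosomes 51.7% to 84.7%) overlapped a region of the CTCF list deposited for HFFc6, against 29.6% of the HFFc6-only distal regions (24.2% to 47.9%). Near starts the shares were 86.9% and 38.9%. The gap was there within each quintile of fold enrichment: 22.8% of shared and 7.04% of line-specific distal regions in the weakest quintile, and 86.0% and 69.6% in the strongest. With a -log10 q of at least 10 the distal shares were 76.9% and 36.7%. Shared HFFc6 regions were also wider than line-specific ones (median 894 against 629 bp), and a wider region can meet a CTCF region more easily. With 500 bp around each summit the distal shares were 62.3% and 30.3%. For H1, the list of CTCF regions named for human embryonic stem cells, which no sample label describes, overlapped 60.7% of shared and 29.4% of H1-only distal regions, and 48.8% and 21.5% of those over 100 kb from a start. Cut&Tag uses Tn5 as ATAC-seq does, so open chromatin can be cut in both assays, and the part of this in the overlap was not tested.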

How the data were processed

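ATAC-seq libraries of HFFc6 (8) and H1 (2) and 2 CTCF lists were used. The tools named per the submitters' processing notes are MACS2, BWA and bedtools, on build hg38; the sources used here give no versions, parameters, filters or depth. Each deposited file is 1 narrowPeak list per group. The authors' columns used were fold enrichment (a ratio of pileup to background), the -log10 q value and the summit offset, deposited as such. The deposited score and -log10 p-value columns were not used. All peaks reached a deposited -log10 q of at least 1.30, so a missing peak means no call.

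From these, overlaps, distances and windows were computed in Python 3.11.15 with numpy 2.4.6, pandas 2.3.3 and scipy 1.17.1. The steps for overlap, distance, clusters, promoter class, counts within 50 kb and motif matches were tested on simulated data. Other steps were not. Gene starts came from the RefSeq promoter table, which held 15811 of 19970 protein-coding genes; the ends of the gene stood for the other 4159. Named genes are all list members, the 10 strongest promoters open in 1 line alone, the 10 largest leans each way, and genes of the largest clusters and richest windows. A few genes that this rule names are not reported here. Motifs, microRNA loci and printed promoters were chosen later. The members and lists were chosen with earlier results of these data known. With 1 list per group no test between lines was possible. The CTCF list named for human embryonic stem cells has no sample label, and its assay is unstated there.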

Additional observations from a re-analysis of the deposited data

Results flagged for a closer look

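Peaks outside chromosomes 1 to 22 and X entered no comparison: 534 in the HFFc6 list and 275 in the H1 list. They appear in data that the report does not use, and no control sample was there to set them against.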

How the results depend on the processing

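For 17 results, 78 values were computed under 9 alternatives, of which 38 stayed within the limits set for a like value and 40 moved. The limit was the 95% interval of a share or 1.5 times a count. No share changed its order between shared and line-specific regions. The 4 settings below are, in this order, an overlap of at least 50% of the shorter region, a -log10 q of at least 10, lists cut to equal length, and 500 bp around each summit. HFFc6 regions found in H1 were 33.0%, 27.9%, 32.1% and 32.3%, and H1 regions found in HFFc6 29.8%, 42.7%, 35.4% and 27.2%, so the order of the lists turned under the second and the third. Within 1 kb of a start lay 30.8%, 37.7%, 31.5% and 29.3% of HFFc6 shared regions, 5.15%, 5.88%, 5.13% and 5.28% of HFFc6-only regions, 32.6%, 38.5%, 33.3% and 29.7% of H1 shared regions, and 6.16%, 7.70%, 6.16% and 8.52% of H1-only regions. H1-only regions over 100 kb from a start were 18.1%, 16.4%, 18.1% and 17.5%. HFFc6 CTCF lay at 64.6%, 76.9% and 65.0% of shared distal regions under the first 3, and at 36.7%, 29.9% and 30.3% of HFFc6-only distal regions under the last 3. With the -log10 q limit, promoters open in HFFc6 alone were 1492, genes leaning to H1 4300 and H1 clusters 174. H1 clusters were 1945 with equal lists, and a gap of 5 kb left 475 HFFc6 and 339 H1 clusters. The cause was not tested. Added after the data were seen were the distance over 100 kb, genes with listed starts only, the promoter window of 250 bp, and the settings applied to motifs, gene lists and windows of 1 Mb. No paired analysis was possible because each group is 1 pooled list with no value per replicate. Depth is unknown, so a missing peak is only a missing call.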
